A study of Mus musculus with 6 samples.

Results

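Cathepsins are the main proteases of the lysosome, and 10 of their genes were followed here in mouse neural crest cells that had lost most of their Nedd4 mRNA. The 10 genes are Ctsb, Ctsc, Ctsd, Ctsf, Ctsh, Ctsk, Ctsl, Ctso, Ctss and Ctsz. They were taken by name from the 19933 genes that had a probeset, the set of probes read as 1 value, with a single gene symbol. Each of the 10 had exactly 1 such probeset, so all members were measured and none was left out by a filter. The cells were NCU10K, an immortalized neural crest line and therefore a single cell source, and RNA was taken 48 h after transfection. They received either Nedd4 siRNA, a single sequence against the ubiquitin ligase gene Nedd4, or a low GC control siRNA, with 3 biological replicates and 1 Affymetrix Mouse Gene 1.0 ST array per replicate. Both groups received the same transfection reagent, and the arrays hold no untransfected cells and no rescue of Nedd4. Effects of that siRNA other than the loss of Nedd4 can therefore not be told apart from it.

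Values are log2 expression, so that a difference of 1 is a 2-fold change, and a level of 1 gene on this scale is not compared with that of another gene. Groups were compared with limma over all 28440 probesets, and a gene passed the test at a Benjamini-Hochberg adjusted p under 0.05. Nedd4 itself was at 10.45, 10.94 and 10.68 on the Nedd4 siRNA arrays, against 12.24, 12.35 and 12.34 on the control siRNA arrays, 3.07-fold lower (limma adjusted p = 3.16e-06). Of 12 neural crest markers, 2 were higher, 6 lower and 4 did not pass. These 8 calls are 66.7% of the list, beside 18.7% of all named genes and 33.4% of those above the median signal of all probesets. The log2 fold change was below 0 for 10 of the 12 markers. On the linear scale their summed signal ran from 11300 to 12300 with Nedd4 siRNA and from 14800 to 15400 with control siRNA. That sum weighs the brightest markers most and is no measure of each of them. The receptor gene Erbb3 had a log2 fold change of −1.14, and the transcription factor genes Sox9, Foxd3 and Tfap2a had 0.66, −0.54 and −0.51. In a bulk sample such as this, fewer cells of a type and less RNA per cell cannot be told apart. Array medians ran from 6.28 to 6.35, and precision is limited by there being 3 arrays per group.

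Cathepsins are made as inactive precursors in the endoplasmic reticulum, tagged with mannose 6-phosphate in the Golgi and carried to the lysosome, where the acid medium and other proteases remove the propeptide. Most are cysteine proteases related to papain, the members other than Ctsd among them, whereas Ctsd encodes an aspartic protease. Some cut inside a protein chain and others trim its ends, and cystatins bind and inhibit those of the papain type. Outside the lysosome, secreted cathepsins can cleave collagens and other matrix proteins, for which Ctsk is best known in the bone-resorbing osteoclast. MiT/TFE transcription factors, such as TFEB, raise the transcription of many lysosomal genes through motifs that contain the letters CACGTG.

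The upstream sequence of the members is given first, and whether it bears on their changes was not tested. RefSeq promoters of GRCm38.p6 were matched by symbol for 8 of the 10 members, all but Ctsb and Ctsh. The 250 bases before the annotated start are printed 5′ to 3′ for Ctsd and Ctsz, which rose, for Ctsf, which did not pass the test but holds the motif, and for Ctsk, which fell. Capitals mark CACGTG, which reads the same on both strands.
Ctsd (chr7:142387828-142388077, minus strand): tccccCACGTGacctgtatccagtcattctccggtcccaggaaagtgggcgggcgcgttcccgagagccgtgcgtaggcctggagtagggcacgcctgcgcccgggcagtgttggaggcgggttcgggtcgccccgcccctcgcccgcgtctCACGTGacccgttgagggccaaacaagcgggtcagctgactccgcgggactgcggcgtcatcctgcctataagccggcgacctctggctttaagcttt
Ctsz (chr2:174439040-174439289, minus strand): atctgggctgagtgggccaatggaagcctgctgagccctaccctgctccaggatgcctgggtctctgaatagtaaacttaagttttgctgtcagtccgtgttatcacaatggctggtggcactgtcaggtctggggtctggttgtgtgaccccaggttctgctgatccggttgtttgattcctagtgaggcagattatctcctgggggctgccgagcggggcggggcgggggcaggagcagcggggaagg
Ctsf (chr19:4854915-4855164, plus strand): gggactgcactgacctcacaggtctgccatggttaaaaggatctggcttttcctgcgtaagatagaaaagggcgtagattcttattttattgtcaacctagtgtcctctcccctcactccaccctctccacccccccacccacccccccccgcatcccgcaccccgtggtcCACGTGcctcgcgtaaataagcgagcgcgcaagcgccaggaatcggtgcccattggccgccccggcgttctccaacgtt
Ctsk (chr3:95498960-95499209, plus strand): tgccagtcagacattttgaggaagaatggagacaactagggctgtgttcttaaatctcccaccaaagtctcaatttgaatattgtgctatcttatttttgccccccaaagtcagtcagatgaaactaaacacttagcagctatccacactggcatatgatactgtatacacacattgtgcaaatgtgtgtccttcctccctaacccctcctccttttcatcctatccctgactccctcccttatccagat
CACGTG lay in the windows of 3 of the 8 members, Ctsd, Ctsf and Ctsl, against 6.02% of all 32851 promoter windows of that length. Ctsd had 2 copies, which begin 245 and 98 bases before the start, and the nearer one is part of the longer TCACGTGA, which was found in 0.785% of all windows. Ctsf had 1 copy at 79 bases. Ctsl had 1 copy at 236 bases before the start that RefSeq's window uses, in a stretch that overlaps the annotated extent of the gene and is therefore not printed. The windows of Ctsc, Ctsk, Ctso, Ctss and Ctsz held none. That of Ctsc, like that of Ctsl, overlaps an annotated gene. GGGCGG, searched on both strands and found in 32.7% of all windows, occurred in those of Ctsc, Ctsd, Ctsf, Ctss and Ctsz and not in those of Ctsk, Ctsl and Ctso. GC content was 67.2% for Ctsd, 58.8% for Ctsz and 47.2% for Ctsl, which rose, and 43.2% for Ctsk, which fell. The others had 42% (Ctso), 44.8% (Ctss), 59.2% (Ctsf) and 60.4% (Ctsc), so that high and low contents were found on either side of the test. Members with CACGTG thus included 2 that rose and 1 that did not pass, and Ctsz rose without it. These matches describe the letters of the windows and no binding.

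Of the 10 cathepsin genes, 4 were higher with Nedd4 siRNA, 1 was lower and 5 did not pass the test. Ctsd, Ctsh, Ctsl and Ctsz rose by 1.27-fold to 1.61-fold, and Ctsk was 1.97-fold lower. Over all named genes 9.62% were higher and 9.13% lower, 18.7% in all. Among the 10319 named genes above the median signal of all probesets 33.4% were called, and 4 of the 7 members in that range were. Members were listed with earlier results of these data known, and no test of the list was made. By the methods' t-test, the one-way ANOVA that takes each gene's variance alone, 3 members passed, Ctsd, Ctsk and Ctsl, against 9.05% of all named genes. The median log2 fold change of the members was 0.15, against −0.02 over all named genes. The groups did not overlap for 6 of the 10, against 31.7% of all named genes. For each of these 6 a two-sided exact permutation test gave p = 0.1, the smallest that 3 arrays against 3 allow. That value follows from the groups not overlapping and is no further result.

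**Figure D1:**
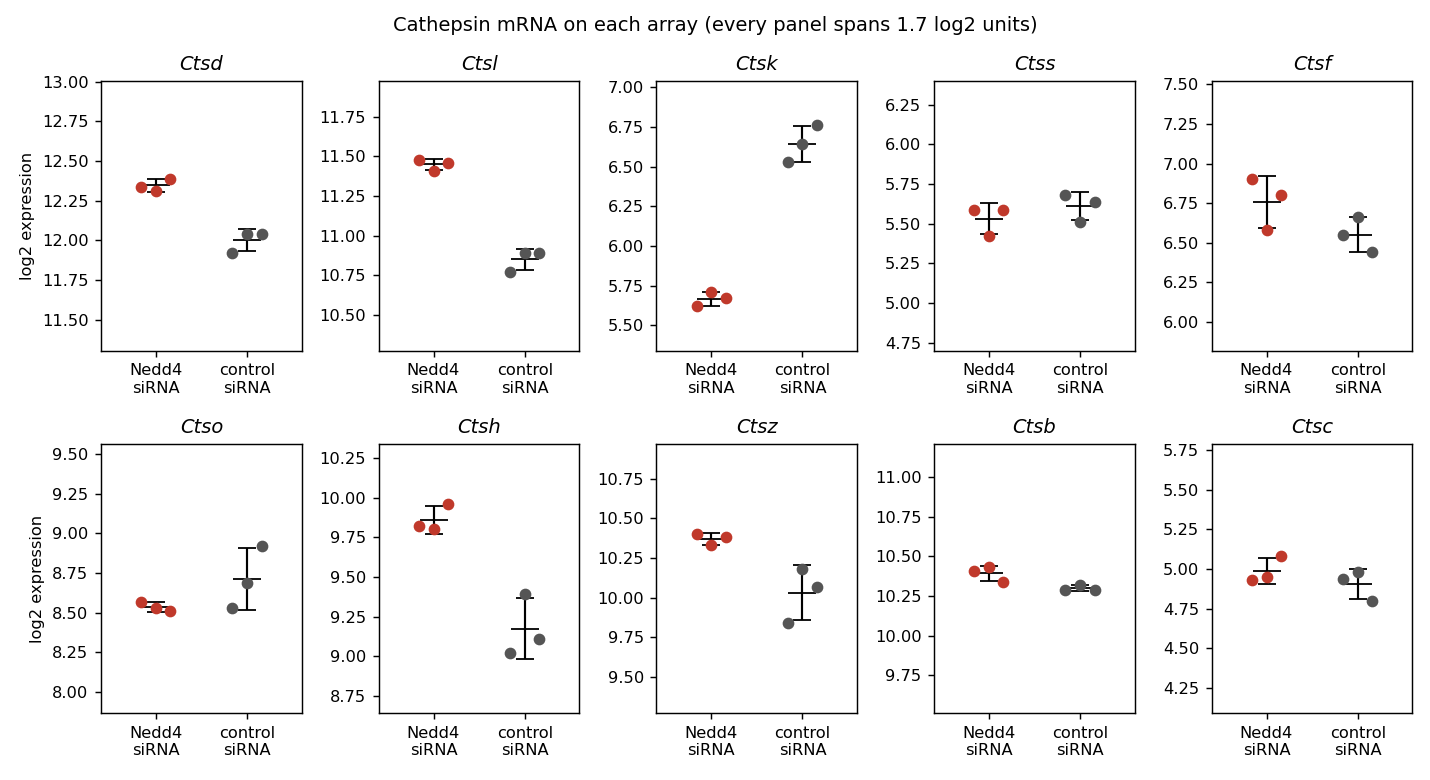
Log2 expression of each cathepsin gene on the 3 Nedd4 siRNA arrays (red, replicates 1 to 3 from left to right) and the 3 control siRNA arrays (grey), with the mean and SD of each group in black and the same span of log2 units in each panel. The Nedd4 siRNA arrays lie above all control arrays for Ctsd, Ctsl, Ctsh, Ctsz and, narrowly, Ctsb, and below them for Ctsk.

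Among the members that cut inside protein chains, Ctsd and Ctsl rose. Ctsd encodes cathepsin D, an abundant aspartic protease of the lysosome whose loss causes a neurodegenerative storage disease in mice. It was at 12.34, 12.31 and 12.39 with Nedd4 siRNA, against 11.92, 12.04 and 12.04 with control siRNA. All Nedd4 siRNA arrays were above all control arrays, and the difference was 0.35 on the log2 scale (SE 0.0854, adjusted p = 0.0139). Without Nedd4 siRNA replicate 1 or replicate 3 the change was 0.35 and 0.33, and the adjusted p from limma was 0.0648 and 0.0593.

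Ctsl encodes cathepsin L, an endopeptidase that takes part in the general breakdown of lysosomal protein and in antigen processing in the thymus. Its levels were 11.48, 11.41 and 11.46 with Nedd4 siRNA and 10.77, 10.89 and 10.89 with control siRNA. The arrays of a group lay close together, with an SD of 0.0361 for Nedd4 siRNA and 0.0693 for control siRNA, and the groups were well apart. Ctsl was 1.52-fold higher, a difference of 0.60 (SE 0.0852, limma adjusted p = 0.000382), and it passed in each of the 16 alternative fits of the data. Their adjusted p ran from 4.09e-05 to 0.016.

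Ctsk, which encodes the collagen-degrading cathepsin K, changed most and in the other direction. It was at 5.62, 5.71 and 5.67 on the Nedd4 siRNA arrays, against 6.53, 6.64 and 6.76 on the control arrays. Every Nedd4 siRNA array was lower, and the gap between the groups was larger than the spread within either. The difference was −0.98 on the log2 scale (SE 0.0909, adjusted p = 1.83e-05), with a 95% interval from −1.17 to −0.78. It lay between −1.03 and −0.92 in the 15 alternative fits that kept the gene, and it passed in all of them, at an adjusted p of 2.51e-06 to 0.0157. The mean signal of Ctsk was below the median of all probesets, so the gene was not tested when the dimmest 50% were left out. The table carries no detection value, so whether the level with Nedd4 siRNA was above background was not tested.

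Ctss encodes cathepsin S, which trims the invariant chain of MHC class II in antigen-presenting cells, and in the RefSeq annotation it neighbours Ctsk with 1 other gene between them. It did not pass, at 5.59, 5.42 and 5.59 with Nedd4 siRNA and 5.68, 5.51 and 5.64 with control siRNA. The groups overlapped, and the difference was −0.08 (95% interval −0.28 to 0.12). Its mean signal was at the 29.8th percentile of all probesets. A fall from such a level can be seen, as for the matrix protein gene Nid1 at the 30.9th percentile (−0.67). Whether Ctss was above background was not tested, so the interval alone does not say whether Ctss can change as Ctsk did.

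Ctsf and Ctso, which encode less studied papain-type cathepsins, did not pass either. Human mutations in the gene of cathepsin F cause a neuronal storage disease of adults. Ctsf was at 6.90, 6.58 and 6.80 with Nedd4 siRNA and 6.55, 6.66 and 6.44 with control siRNA, with replicate 2 of the Nedd4 siRNA arrays inside the control range. Its log2 fold change was 0.21 (95% interval −0.02 to 0.44, adjusted p = 0.24 from limma). Ctso was at 8.57, 8.53 and 8.51 with Nedd4 siRNA, against 8.53, 8.69 and 8.92 with control siRNA. Here the control arrays were spread widely, with an SD of 0.196, and control replicate 1 lay within the Nedd4 siRNA range. The difference was −0.18 (95% interval −0.40 to 0.05).

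**Figure D2:**
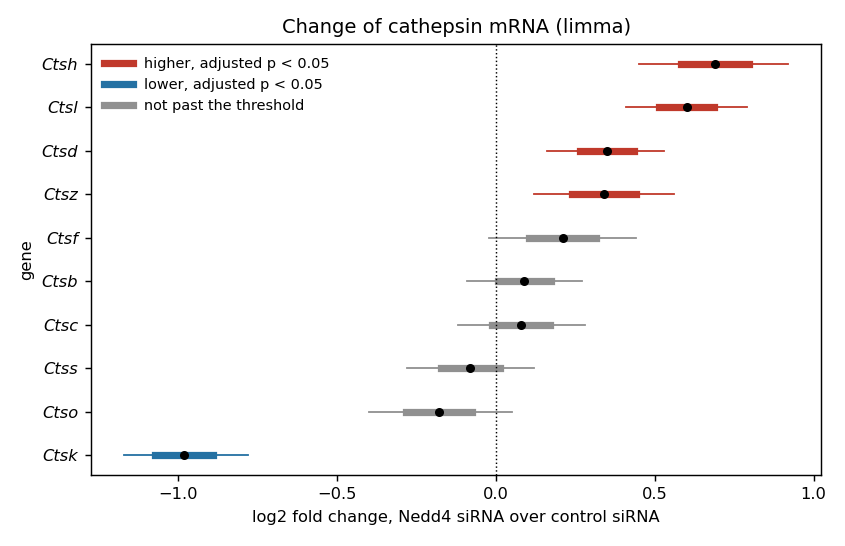
Log2 fold change of the 10 cathepsin genes with Nedd4 siRNA over control siRNA from limma, with 3 arrays per group. Black points are the estimates, thick bars their SE and thin lines the 95% interval (red, higher and blue, lower past the threshold, grey not past it), and the estimates run from 0.69 for Ctsh at the top to −0.98 for Ctsk at the bottom.

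Of the members that can trim protein ends, Ctsh and Ctsz rose. Ctsh encodes cathepsin H, mainly an aminopeptidase, and had the largest rise of the 10. It was at 9.82, 9.80 and 9.96 with Nedd4 siRNA, against 9.02, 9.39 and 9.11 with control siRNA. The lowest Nedd4 siRNA array was above the highest control array, although control replicate 2 stood above the other controls. Ctsh was 1.61-fold higher, a difference of 0.69 (SE 0.107, limma adjusted p = 0.000746). With the methods' t-test it had an adjusted p of 0.0566.

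Ctsz encodes cathepsin Z, also called cathepsin X, a carboxypeptidase that removes single residues. Its levels were 10.40, 10.33 and 10.38 with Nedd4 siRNA, against 9.84, 10.18 and 10.07 with control siRNA. Control replicate 1 was the lowest, and the groups did not overlap. The log2 fold change was 0.34 (SE 0.1, adjusted p = 0.0358), the weakest call among the members. It was not past the threshold by the methods' t-test (adjusted p = 0.162) or with limma when any array except control replicate 2 was left out. The adjusted p was then 0.14, 0.06 and 0.0936 without Nedd4 siRNA replicates 1, 2 and 3, and 0.123 and 0.0668 without control siRNA replicates 1 and 3. Without control replicate 1 the change was 0.24.

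Ctsb encodes cathepsin B, which cuts inside chains and also removes dipeptides from their end. It was at 10.41, 10.43 and 10.34 with Nedd4 siRNA and 10.29, 10.32 and 10.29 with control siRNA. The Nedd4 siRNA arrays were all higher, by a margin of hundredths, and the log2 fold change of 0.09 did not pass (95% interval −0.09 to 0.27, adjusted p = 0.591 from limma). Ctsc encodes cathepsin C, a dipeptidyl peptidase that activates serine proteases of immune cell granules. It was at 4.93, 4.95 and 5.08 with Nedd4 siRNA and 4.94, 4.98 and 4.80 with control siRNA, which overlap, with a difference of 0.08 (95% interval −0.12 to 0.28). Its probeset was among the dimmest 25% of all probesets.

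Within the groups, the order of the arrays was read over the 10 genes. Control siRNA replicate 1 was the lowest control array for 6 of the 10 members, against 31% of all named genes, and control replicate 2 the highest for 5, against 33.2%. Nedd4 siRNA replicate 2 was the lowest of its group for 6 members, against 34.8% of all named genes. The 3 genes whose values over the 6 arrays were most like those of Ctsk were Mfsd13a, Tubg2, a γ-tubulin gene, and the Polycomb gene Cbx2, with Pearson's r of 0.99913, 0.99840 and 0.99828. For Ctsh they were the splicing factor gene Rbm39 (0.99741), Wdr48, a cofactor of deubiquitinases (0.99734), and Syngr2 (0.99524). A high r does not mean a change of like size. Rbm39 had a log2 fold change of 0.16 and did not pass (limma adjusted p = 0.263), and Wdr48 and Syngr2 had 0.42 and 0.40. Mfsd13a, Tubg2 and Cbx2 had −1.81, −1.15 and −0.83. These correlations are descriptions over 6 arrays that form 2 groups. As many as 883 genes reached an r of 0.95 or more with Ctsk and 559 with Ctsh.

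Ctsc, Ctsk and Ctss are known from immune cells and osteoclasts, so markers of those cells were read beside them. None of 14 macrophage markers passed the test in limma. Their median log2 fold change was −0.08, and 12 of the 14 were below 0. The smallest p were those of C1qb (−0.14) and Tyrobp (−0.15). Their summed linear signal ran from 676 to 717 with Nedd4 siRNA and from 708 to 762 with control siRNA, which overlap, and 12 of the 14, among them Ptprc, Csf1r and Adgre1, lay below the median signal of all probesets. None of 8 osteoclast markers passed either, and 7 of the 8 lay below that median, among them Acp5, which encodes the tartrate-resistant acid phosphatase of osteoclasts. Their median log2 fold change was −0.02, and 6 of the 8 were below 0, Acp5 with −0.12. The sum of their signals ran from 682 to 726 with Nedd4 siRNA and from 645 to 680 with control siRNA. It was set by the brightest of them, the transcription factor gene Nfatc1, at 8.47, 8.62 and 8.33 with Nedd4 siRNA and 8.08, 8.47 and 8.16 with control siRNA, which did not pass (0.24, adjusted p = 0.235). Without Nfatc1, left out after the data were seen, the sums overlapped, at 333 to 361 with Nedd4 siRNA and 325 to 377 with control siRNA. The array scale has no 0, and the part of other cell types in the cathepsin values was not tested.

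Cathepsins outside the member list gave 1 further call. Of 4 measured, Ctsw, which encodes a papain-type protease of cytotoxic lymphocytes, was at 8.85, 9.20 and 8.89 with Nedd4 siRNA, against 8.17, 8.65 and 8.42 with control siRNA. All Nedd4 siRNA arrays were higher (log2 fold change 0.57, SE 0.13, adjusted p = 0.0091 from limma), but the adjusted p was 0.174 by the methods' t-test. Ctsa (0.08), Ctse (−0.28) and Ctsg (−0.21) did not pass. None of 7 measured cathepsin L-like genes of the rodent placenta passed, with log2 fold changes between −0.09 and 0.10. The smallest p were those of Cts7 (−0.09) and Ctsq (0.09). Of 9 other lysosomal proteases and cathepsin-like proteins 1 fell, Tinagl1, which encodes a matrix protein that resembles cathepsin B but has no protease activity (−0.56, SE 0.106, adjusted p = 0.00271). It was not past the threshold by the methods' t-test (adjusted p = 0.0803). Lgmn, whose product legumain processes several cathepsins, had a change of 0.21 (adjusted p = 0.136).

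Among 21 measured cystatins and other inhibitors, 1 rose and none fell, with 0 to 2 higher and 0 to 1 lower over the alternatives. Stfa2, a stefin gene, lay just outside the threshold, at −0.31 (limma adjusted p = 0.0625) with groups that did not overlap. The gene that rose was Serpinb1a, known as an inhibitor of neutrophil serine proteases and not of the papain type, at 8.22, 7.90 and 7.92 with Nedd4 siRNA, against 6.84, 7.05 and 7.37 with control siRNA. The groups were clearly apart (log2 fold change 0.93, SE 0.134, adjusted p = 0.00043), although the methods' t-test gave an adjusted p of 0.0721. Cst3, which encodes the secreted inhibitor cystatin C, had a change of 0.22 and did not pass (adjusted p = 0.122). Genes that tag and sort lysosomal enzymes had 3 falls and no rise among 11 measured in limma. These 3 are 27.3% of the list, beside 18.7% of all named genes and 33.4% of those above the median signal. The alternatives gave 1 to 3 lower and 0 to 2 higher, with at least 1 higher in 8 of them. Sorl1, a sorting receptor gene, lay just outside the threshold, at 0.28 (adjusted p = 0.0528) with groups that did not overlap. Nagpa, whose enzyme uncovers the mannose 6-phosphate tag, was at 7.50, 7.65 and 7.45 with Nedd4 siRNA, against 8.70, 8.65 and 8.61 with control siRNA. It was 2.17-fold lower, a difference of −1.12 (SE 0.0895, limma adjusted p = 6.61e-06). Igf2r, the gene of a receptor for that tag, fell with −0.46 (adjusted p = 0.00669), and Gga2, an adaptor that packs such receptors into vesicles, with −0.34 (adjusted p = 0.0377). Igf2r did not pass the methods' t-test (adjusted p = 0.087), nor did Gga2 (0.172). Gga2 also failed with limma after median centring (0.0703) and without any array other than control replicate 3, at an adjusted p of 0.0554 to 0.153.

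**Figure D3:**
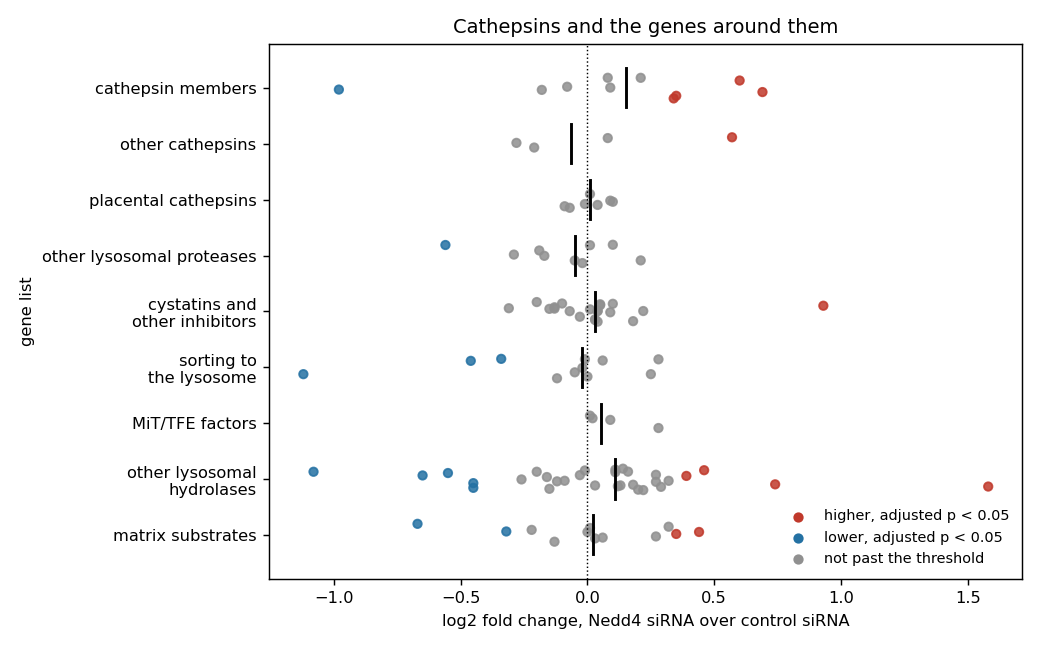
Log2 fold change with Nedd4 siRNA over control siRNA for every measured gene of the cathepsin members and 8 related lists. Each point is 1 gene (red, higher, blue, lower, at an adjusted p under 0.05 from limma; grey, not past it), and black lines are list medians, which run from −0.06 to 0.15.

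None of the 4 MiT/TFE transcription factor genes passed the test. Mitf was at 8.51, 8.42 and 8.35 with Nedd4 siRNA and 8.05, 8.20 and 8.20 with control siRNA, with a change of 0.28 (adjusted p = 0.0572 from limma). It passed under 6 of 16 alternatives, at an adjusted p of 0.0178 to 0.0497, and its change was 0.15 with the mean of its probesets. Tfeb (0.09), Tfe3 (0.02) and Tfec (0.01) had smaller values. Of 31 other hydrolases of the lysosome, 4 were higher, 5 lower and 22 did not pass, with a median of 0.11. The calls were 29% of this list, beside 18.7% of all named genes and 33.4% of those above the median signal. Galc, for galactosylceramide breakdown (1.58, adjusted p = 1.85e-06), and the phospholipase gene Pla2g15 (0.74, adjusted p = 0.000508) rose. Asah1, for acid ceramidase (−1.08, adjusted p = 1.55e-05), and the thioesterase gene Ppt2 (−0.65, adjusted p = 0.000308) fell. Pla2g15 did not pass the methods' t-test (adjusted p = 0.0541). Calls in both directions were thus seen among lysosomal enzymes of either kind.

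Of 12 genes of matrix proteins that cathepsins are known to cleave, 2 were higher, 2 lower and 8 not past the threshold. These 4 are 33.3% of the list, beside 33.4% of named genes above the median signal and 18.7% of all named genes. Over the 8 related lists together 19 of 99 genes were called, or 19.2%, close to the share of all named genes. Nid1, which encodes the basement membrane protein nidogen, had a change of −0.67 (adjusted p = 0.000336 from limma), at 5.26, 5.38 and 5.15 with Nedd4 siRNA and 6.02, 5.87 and 5.91 with control siRNA. Its Nedd4 siRNA values lay below 5.47, the 25th percentile of mean probeset signal, and whether they were above background was not tested. The collagen gene Col3a1 had −0.32 (adjusted p = 0.0449) and Col5a1 0.44 (adjusted p = 0.0151), and neither passed the methods' t-test (adjusted p = 0.168 and 0.159). Fn1, for fibronectin, rose with 0.35 (adjusted p = 0.0106), and the adjusted p was 0.0511 without Nedd4 siRNA replicate 1. Without that array Col3a1 and Col5a1 were not past the threshold either, at 0.166 and 0.0519, nor without Nedd4 siRNA replicate 3, at 0.113 and 0.0558. Col3a1 was lost also without Nedd4 siRNA replicate 2 (0.073), control siRNA replicate 1 (0.124) or 2 (0.138), and with median centring (0.0794).

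**Figure D4:**
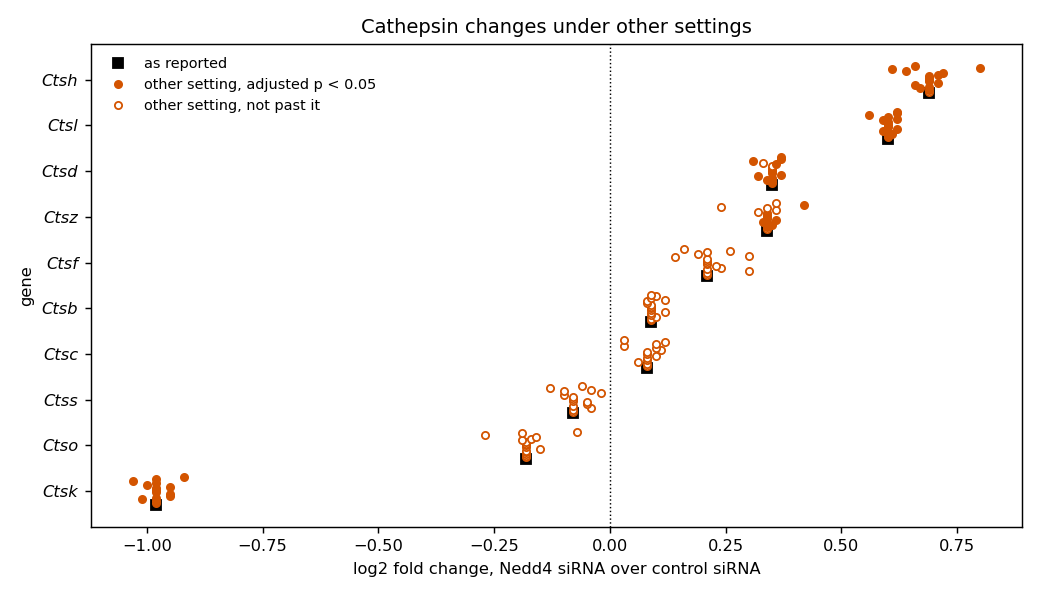
Log2 fold change of each cathepsin gene as reported (black squares) and in the alternative fits of the data (circles, filled where the adjusted p was under 0.05). Ctsl and Ctsk stayed past the threshold in each fit that tested them, Ctsh in all but 1, Ctsd in all but 2 and Ctsz in 10 of 16.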

How the data were processed

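The authors deposited log2 expression values for 28440 probesets, from 300 ng of RNA per array. Per the methods these were made in Partek Genomics Suite, listed as version 6.5 by the submitters, by importing the scans with RMA for the background, adjusting for probe GC content and taking the mean of the probes. Normalization between arrays is not given in the sources used here, and none was added. The scans were not used. Groups were read from sample titles. The siRNA groups were set against each other in limma 3.58.1 (R 4.3.3, lmFit and eBayes, no covariate, Benjamini-Hochberg adjustment over all probesets), a fit tested on simulated data. Python 3.11.15 with pandas 2.3.3 made the counts. A gene was read from its probeset with the highest mean. The methods call the replicates biological and do not say how the cultures were separated, so p-values measure the spread between these samples. In limma the spread of each gene is drawn toward that of all probesets. For Ctsb the SE was 0.0829 in limma and 0.0291 by the methods' t-test, which Ctsb did not pass either (adjusted p = 0.172).

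The members and the 12 lists were chosen with earlier results of these data known. Genes were named as all members, Nedd4, the MiT/TFE factors, the 3 genes most like the largest rise and fall by Pearson's r, and up to 4 genes per list past the threshold with the smallest p, or up to 2 where none passed. Ctsa, Ctse, Ctsg, Lgmn, Cst3, Ptprc, Csf1r, Adgre1, Sorl1 and Stfa2 were named after their values were seen. The alternatives changed the test (the methods' t-test, an ANOVA whose factors they do not state and which was assumed to have siRNA alone, eBayes with a trend and robust variances, array weights, or the replicate number as a block), the scaling (quantiles, or array medians set equal) or the probesets (no dimmest 25%, no dimmest 50%, no probesets with several symbols, averaged probesets per gene). They also set the threshold at 0.01 and left out each array in turn.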

Additional observations from a re-analysis of the deposited data

How the results depend on the processing

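Of the members, 4 were higher and 1 lower as reported. The methods' t-test and an adjusted p under 0.01 each left 2 higher, and leaving out 1 array in turn gave 2 to 4 higher and 1 lower. Without the dimmest 50% of probesets 0 were lower, since Ctsk was then not tested. No member changed its direction in any alternative. At an unadjusted p under 0.05, the methods' t-test gave 6 of the 10 members and 5129 of the 19933 named genes. Limma gave 5 members and 5669 named genes at that threshold. After adjustment 1804 named genes passed by the methods' t-test, against 3737 by limma. Over the 8 related lists 8 of 99 genes were higher and 11 lower, 19.2% in all, beside 18.7% of all named genes. These counts were 4 and 5 by the methods' t-test, 15 higher with array weights, 13 higher with quantile normalization and 14 higher without the dimmest 50% of probesets. Over all named genes the number higher moved too. It was 1918 as reported, 954 by the methods' t-test, 2411 with array weights and 2103 with quantile normalization. Without the dimmest 50% it was 2055 of 10319 tested genes. In the related lists, leaving out 1 array in turn gave 6 to 13 higher, the most without control siRNA replicate 2, and 8 to 12 lower. Tfe3 changed its sign to −0.01 with quantile normalization, and with 1 array left out in turn Tfe3 lay between −0.06 and 0.11 and Tfec between −0.04 and 0.11, none past the threshold. With the replicate number as a block 4 members were higher and 1 lower, and over all named genes 4000 passed, against 3737. Same-numbered arrays of the groups had correlated deviations for replicate 2 alone (r = 0.472, against −0.0123 and −0.0131). Nedd4 siRNA replicate 3 and control siRNA replicate 1, of unlike number, had r = 0.415. Not every array was thus most like its own number, and a shared number is not shown to be a pairing. Quantile normalization and median centring moved the median change of all genes by less than 0.1, to 0.00 and 0.01.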
